A study of Mus musculus with 6 samples.

Results

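The genes described here encode the COP9 signalosome, the cullins it acts on and the enzymes of neddylation. A fixed list of 36 genes was matched by gene symbol to the annotation of the array, and 35 of them were measured, of 19505 genes tested in all. Ube2m was not analysed here. The 35 comprised 10 signalosome subunits, 8 cullins, 9 genes of NEDD8 conjugation, 3 exchange or processing factors and 5 ligase adaptors or substrate receptors. No measured value was used to choose them, but the list was drawn up with earlier results of these data known.

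The study measured RNA of small intestinal crypts from 3 CSN8ΔIEC and 3 CSN8fl/fl samples, each on its own Affymetrix array. CSN8ΔIEC was taken, from its name, as deletion of the loxP-flanked Cops8 gene in intestinal epithelial cells, and CSN8fl/fl as mice with the loxP-flanked gene and no deletion. All mice were on the C57bl/6 background. In each genotype the labels give female sex and an age of 16 weeks for replicates 1 and 2, but male sex and 10 weeks for replicate 3. The labels used here do not name the Cre driver. Villi were scraped off and crypts then released with EDTA, so cells outside the epithelium, which would keep an intact gene, may be part of it. The sample titles call the replicates biological, but do not state whether each sample came from a separate mouse. The p-values thus measure the spread between these samples, which may be partly technical. All 8 epithelial markers had differences within the range from −0.095 to 0.14 and none passed the threshold.

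The COP9 signalosome is a complex that cuts the ubiquitin-like protein NEDD8 from cullins. Cullins are the scaffolds of cullin-RING ubiquitin ligases: one end holds a RING protein that recruits the ubiquitin-carrying enzyme, the other an adaptor and a substrate receptor. NEDD8 attached to the cullin switches the ligase on, its removal by the signalosome switches it off, and cycles of both allow receptors to be exchanged. In the intestinal epithelium these ligases turn over β-catenin, the Notch intracellular domain, cyclin E and NRF2.

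Values are log2 probe set signals as the authors deposited them, and a difference is CSN8ΔIEC minus CSN8fl/fl on that scale, with its standard error from limma (moderated linear model). Adjusted p-values are Benjamini-Hochberg values over all 19505 genes, with a threshold of 0.05. None of the 35 genes passed, while 1.08% of all genes did (0.374% higher and 0.702% lower in CSN8ΔIEC). At an unadjusted p under 0.05 there were 5 of the 35 (Cops8, Cul7, Dcun1d5, Gps1 and Skp2), or 14.3%, where 15.0% of all genes met that level. In this fit the share was near that of all genes, but it moved with the setting, as given below. Signals of different genes come from different probes and are not compared with each other. In bulk RNA, fewer cells that express a gene and less RNA per cell cannot be told apart.

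Cops8 encodes subunit 8 of the signalosome, the target of the deletion. Its signal was 7.68, 7.61 and 7.77 on the 3 CSN8ΔIEC arrays, against 8.26, 8.22 and 8.10 on the 3 CSN8fl/fl arrays. All 3 CSN8ΔIEC values lay below all 3 CSN8fl/fl values. The difference of −0.50 ± 0.11 (SE) left 70.5% of the CSN8fl/fl signal (95% interval 58.9% to 84.4%), a share of signal, which includes probe background, and not of transcripts. Of the 35 genes it had the largest difference in size, and 2.05% of all genes had a smaller p (adjusted p = 0.0865). It missed the threshold without any 1 array (adjusted p from 0.100 to 0.293) and passed when genes dimmer than the median were left out (adjusted p = 0.0436). Which exons were removed, and whether its probes lie in them, is unknown here; a probe in a retained exon would not check the genotype.

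The other 9 subunits had a median difference of 0.15 and all 9 differences were above 0, against a median of −0.011 and 48.2% above 0 over all genes. None passed the threshold. Gps1 encodes subunit 1, one of the subunits with a PCI domain, a fold through which they pack together. It had 9.95, 9.70 and 9.71 on the CSN8ΔIEC arrays, against 9.43, 9.55 and 9.23 on the CSN8fl/fl arrays, a difference of 0.38 ± 0.13 (adjusted p = 0.231). It was the only one of the 9 whose genotypes did not overlap, with the CSN8ΔIEC values higher. Among all genes 10.7% were apart in that direction and 11.7% in the other, and of the 35 genes 5 (14.3%) and 2 (5.71%).

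**Figure D1:**
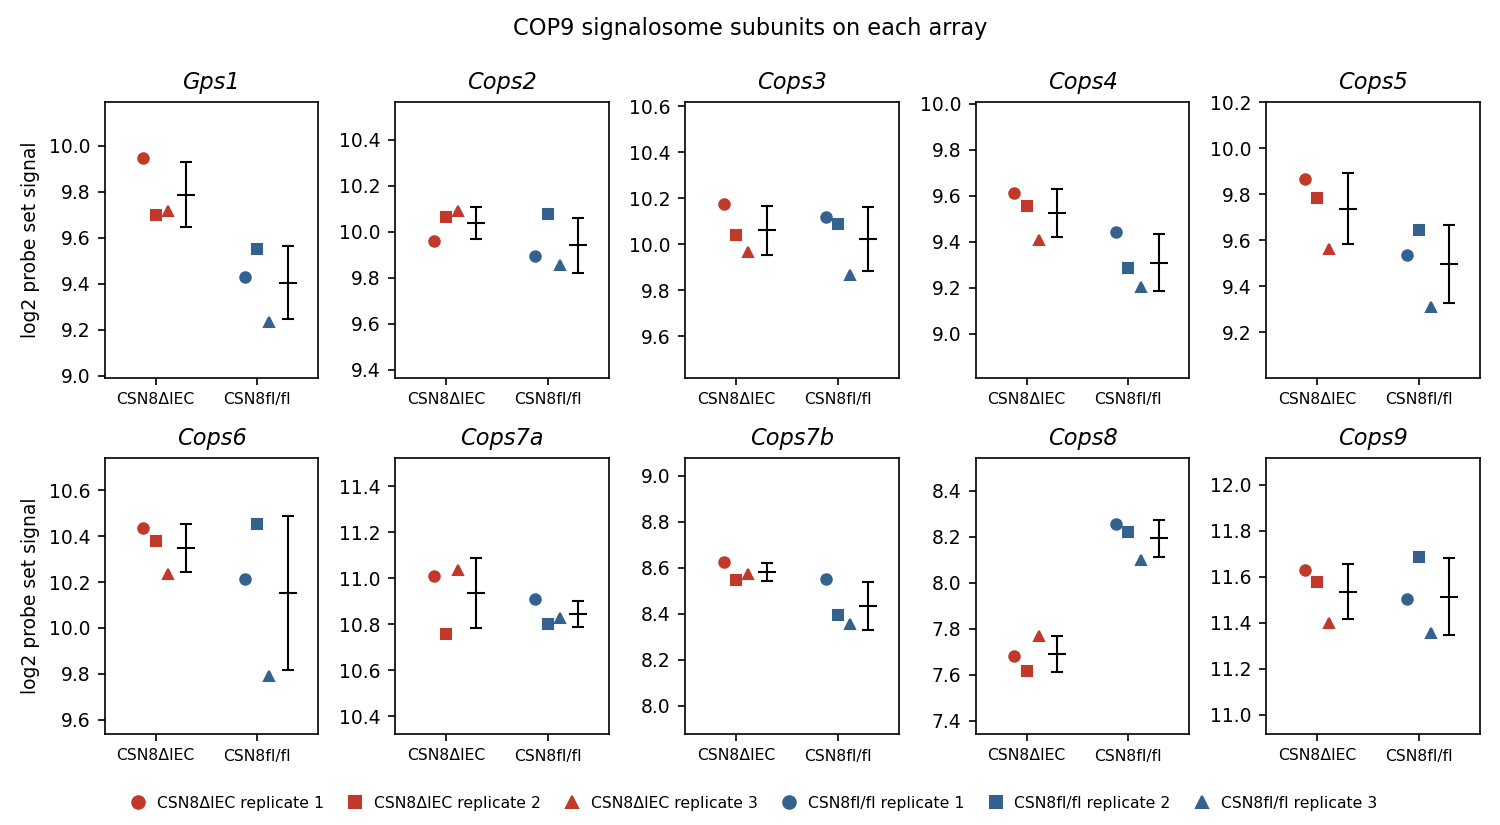
Log2 probe set signals of the 10 signalosome subunits on each array, CSN8ΔIEC at the left and CSN8fl/fl at the right of each panel. Every y axis spans the same range, symbols mark replicates, and bars give mean and SD (n = 3). Cops8 has its CSN8ΔIEC values lower, Gps1 has them higher, and the genotypes overlap in the other 8 panels.

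The catalytic module consists of Cops5, the metalloprotease that cuts NEDD8, and Cops6, its inactive partner with the same MPN fold. Cops5 had 9.87, 9.78 and 9.56 in CSN8ΔIEC, against 9.54, 9.64 and 9.31 in CSN8fl/fl (difference 0.24 ± 0.14, adjusted p = 0.457). Cops6 had 10.44, 10.38 and 10.23 in CSN8ΔIEC, against 10.21, 10.45 and 9.79 in CSN8fl/fl (difference 0.20 ± 0.17, adjusted p = 0.629). Without CSN8fl/fl replicate 3 the difference was 0.15 for Cops5 and 0.017 for Cops6. In both genes that array was the lowest and CSN8fl/fl replicate 2 lay among the CSN8ΔIEC values or above them. Cops4, which helps to hold the catalytic module inactive until a substrate binds, had 9.61, 9.55 and 9.41 in CSN8ΔIEC, against 9.44, 9.29 and 9.20 in CSN8fl/fl (difference 0.22 ± 0.12, adjusted p = 0.452). A single CSN8fl/fl value, that of replicate 1, lay within the CSN8ΔIEC range.

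Subunits 2 and 3 are PCI subunits, of which Cops2 grips the RING end of the cullin. Cops2 had 9.96, 10.07 and 10.09 in CSN8ΔIEC, against 9.89, 10.08 and 9.85 in CSN8fl/fl (difference 0.098 ± 0.12, adjusted p = 0.739). Cops3 had 10.18, 10.04 and 9.97 in CSN8ΔIEC, against 10.12, 10.09 and 9.87 in CSN8fl/fl (difference 0.035 ± 0.13, adjusted p = 0.919). In both, the genotypes overlapped and the SD within CSN8fl/fl exceeded the difference.

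Subunit 7 has 2 forms in mammals, encoded by the paralogues Cops7a and Cops7b, of which a complex holds 1. Cops7a had 11.01, 10.76 and 11.03 in CSN8ΔIEC, against 10.91, 10.80 and 10.82 in CSN8fl/fl (difference 0.09 ± 0.12, adjusted p = 0.771). Cops7b had 8.63, 8.54 and 8.57 in CSN8ΔIEC, against 8.55, 8.39 and 8.35 in CSN8fl/fl (difference 0.15 ± 0.11, adjusted p = 0.578). Each had 1 CSN8fl/fl or CSN8ΔIEC array out of order: CSN8ΔIEC replicate 2 was the lowest array for Cops7a, and CSN8fl/fl replicate 1 lay within the CSN8ΔIEC range for Cops7b. Cops9, a small acidic subunit, had 11.63, 11.58 and 11.40 in CSN8ΔIEC, against 11.50, 11.69 and 11.35 in CSN8fl/fl (difference 0.021 ± 0.13, adjusted p = 0.955).

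As a group, the 9 subunits can be read array by array as the mean deviation of each gene from its own mean over the 6 arrays. This was 0.16, 0.063 and 0.017 on the CSN8ΔIEC arrays, against −0.027, 0.016 and −0.23 on the CSN8fl/fl arrays. CSN8ΔIEC replicate 3 and CSN8fl/fl replicate 2 were nearly equal, and CSN8fl/fl replicate 3 stood lowest by a wide margin. That array was the lowest of the 6 for 8 of the 9 subunits (all but Cops7a) and for 21 of the 35 genes, or 60.0%, against 25.7% of all genes. It also correlated less with the other arrays across all probe sets (Pearson r from 0.976 to 0.986) than those did at their best (0.992 to 0.993). Without it the median of the 9 differences was 0.080 and 7 of the 9 lay above 0, with Cops3 at −0.044 and Cops9 at −0.059. Leaving out any 1 other array gave medians from 0.14 to 0.21, with 7 of the 9 above 0 without CSN8ΔIEC replicate 1 and 8 of the 9 without CSN8ΔIEC replicate 2.

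The subunits share their ancestry and domains with the lid of the proteasome and with the translation factor eIF3, both built from PCI and MPN proteins. These 16 genes were similar in direction: all 16 differences were above 0, their median was 0.20, none passed the threshold, and CSN8fl/fl replicate 3 was the lowest array for all 16. The smallest p among them belonged to Eif3m, an eIF3 PCI subunit, with 11.31, 11.25 and 11.29 in CSN8ΔIEC, against 11.06, 11.16 and 10.67 in CSN8fl/fl (difference 0.32 ± 0.15, adjusted p = 0.351). Eif3e had a difference of 0.39 ± 0.19 (adjusted p = 0.379), Eif3c 0.22 ± 0.12 (adjusted p = 0.45) and the lid subunit Psmd12 0.21 ± 0.12 (adjusted p = 0.476). The genotypes were apart in 6 of the 16 (37.5%), all higher in CSN8ΔIEC, against 1 of the 9 subunits (11.1%). In either direction 22.4% of all genes were apart, and 30.1% of those at or above the median signal. Without CSN8fl/fl replicate 3 the median of the 16 was 0.086 and 12 of the 16 were above 0. Whether the subunits and these genes differ in their shift was not tested.

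**Figure D2:**
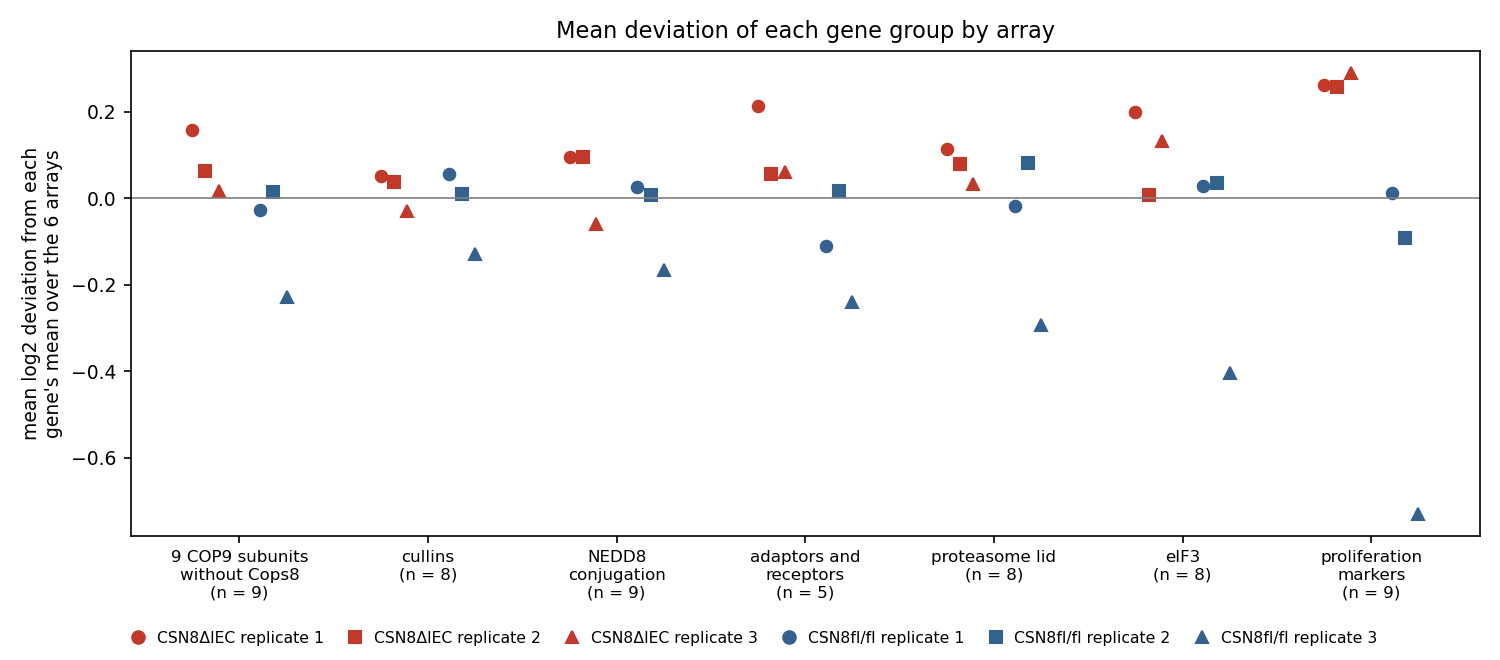
Mean log2 deviation of each gene group from its genes' means over the 6 arrays, with CSN8ΔIEC left of CSN8fl/fl in each group and 1 symbol per array. CSN8fl/fl replicate 3 is the lowest array in all 7 groups shown, from −0.13 for cullins to −0.73 for the proliferation markers. The exchange and processing factors, not plotted, did not share this.

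Markers of dividing cells moved with that array too. All 9 proliferation markers measured of 10 listed had differences above 0 (median 0.52, none past the threshold). An unadjusted p under 0.05 was met by 7 of the 9, against 15.0% of all genes. In 8 of the 9 (88.9%) the CSN8ΔIEC values were all higher, against 10.7% of all genes. Without CSN8fl/fl replicate 3 all 9 were still above 0 and the median was 0.29. Their summed signal, as log2, was 13.78 to 13.80 on the CSN8ΔIEC arrays and 12.87 to 13.55 on the CSN8fl/fl arrays, lowest in replicate 3. Markers of Paneth cells, the antimicrobial cells of the crypt base, and of tuft cells, chemosensory cells, were lower in CSN8ΔIEC: 2 of 7 and 4 of 7 fell. Their summed signals were 14.65 to 15.41 and 9.17 to 9.31 on the CSN8ΔIEC arrays, against 15.90 to 15.98 and 10.61 to 12.36 on the CSN8fl/fl arrays. Of the enterocyte, T cell, B and plasma cell and myeloid markers none passed, and of 7 stromal and muscle markers 1, Acta2, rose. Of 9 enterocyte markers 7 had differences below 0, with the smallest p in Alpi (−1.08 ± 0.23, adjusted p = 0.0681, genotypes apart). In mean deviation, CSN8fl/fl replicate 3 was the highest array for enterocyte (0.36), T cell (0.53) and tuft cell (1.9) markers. It was the lowest for B and plasma cell markers (−0.81). The mean deviation over the 7 myeloid markers was −0.19, −0.049 and −0.042 on the CSN8ΔIEC arrays, against 0.085, 0.25 and −0.057 on the CSN8fl/fl arrays, and these overlapped. The part of cell composition in the differences of the 35 genes was not tested.

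The 8 cullins had a median difference of 0.039, with 5 above 0 and 3 below. Cul7, which pairs with the receptor Fbxw8, had 6.33, 6.30 and 6.63 in CSN8ΔIEC, against 6.88, 6.86 and 6.75 in CSN8fl/fl. All 3 CSN8ΔIEC values lay below the CSN8fl/fl values (difference −0.41 ± 0.13, adjusted p = 0.192). Its partner Fbxw8 differed by −0.037 ± 0.13 (adjusted p = 0.921), and its paralogue Cul9 by 0.065 ± 0.12 (adjusted p = 0.836). Fbxw8 is no member of the list of 35 and was chosen as the partner of Cul7. Cul7 and Cul9 were dimmer than the median gene, where probe background is a larger part of the signal.

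Cul4a and Cul4b are close paralogues that bind the adaptor Ddb1. Cul4b had 9.17, 9.13 and 8.94 in CSN8ΔIEC, against 8.92, 8.88 and 8.52 in CSN8fl/fl (difference 0.30 ± 0.14, adjusted p = 0.369). Cul4a had 8.89, 8.89 and 8.91 in CSN8ΔIEC, against 8.84, 8.72 and 8.80 in CSN8fl/fl (difference 0.11 ± 0.11, adjusted p = 0.679). In both genes the CSN8ΔIEC values all lay above the CSN8fl/fl values, by 0.013 in Cul4b and 0.048 in Cul4a at the closest arrays. Cul2, the scaffold for the VHL receptor, had 8.95, 9.02 and 8.59 in CSN8ΔIEC, against 8.78, 8.56 and 8.21 in CSN8fl/fl (difference 0.34 ± 0.18, adjusted p = 0.416), and replicate 1 of CSN8fl/fl lay within the CSN8ΔIEC range. Without CSN8fl/fl replicate 3 the difference was 0.18 for Cul4b and 0.19 for Cul2. The main scaffolds Cul1, of the F-box ligases, and Cul3, which carries the NRF2 receptor Keap1, had differences of −0.042 ± 0.12 and −0.041 ± 0.12, and Cul5 had 0.014 ± 0.14. Their 95% intervals were −0.31 to 0.23, −0.30 to 0.22 and −0.30 to 0.33.

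**Figure D3:**
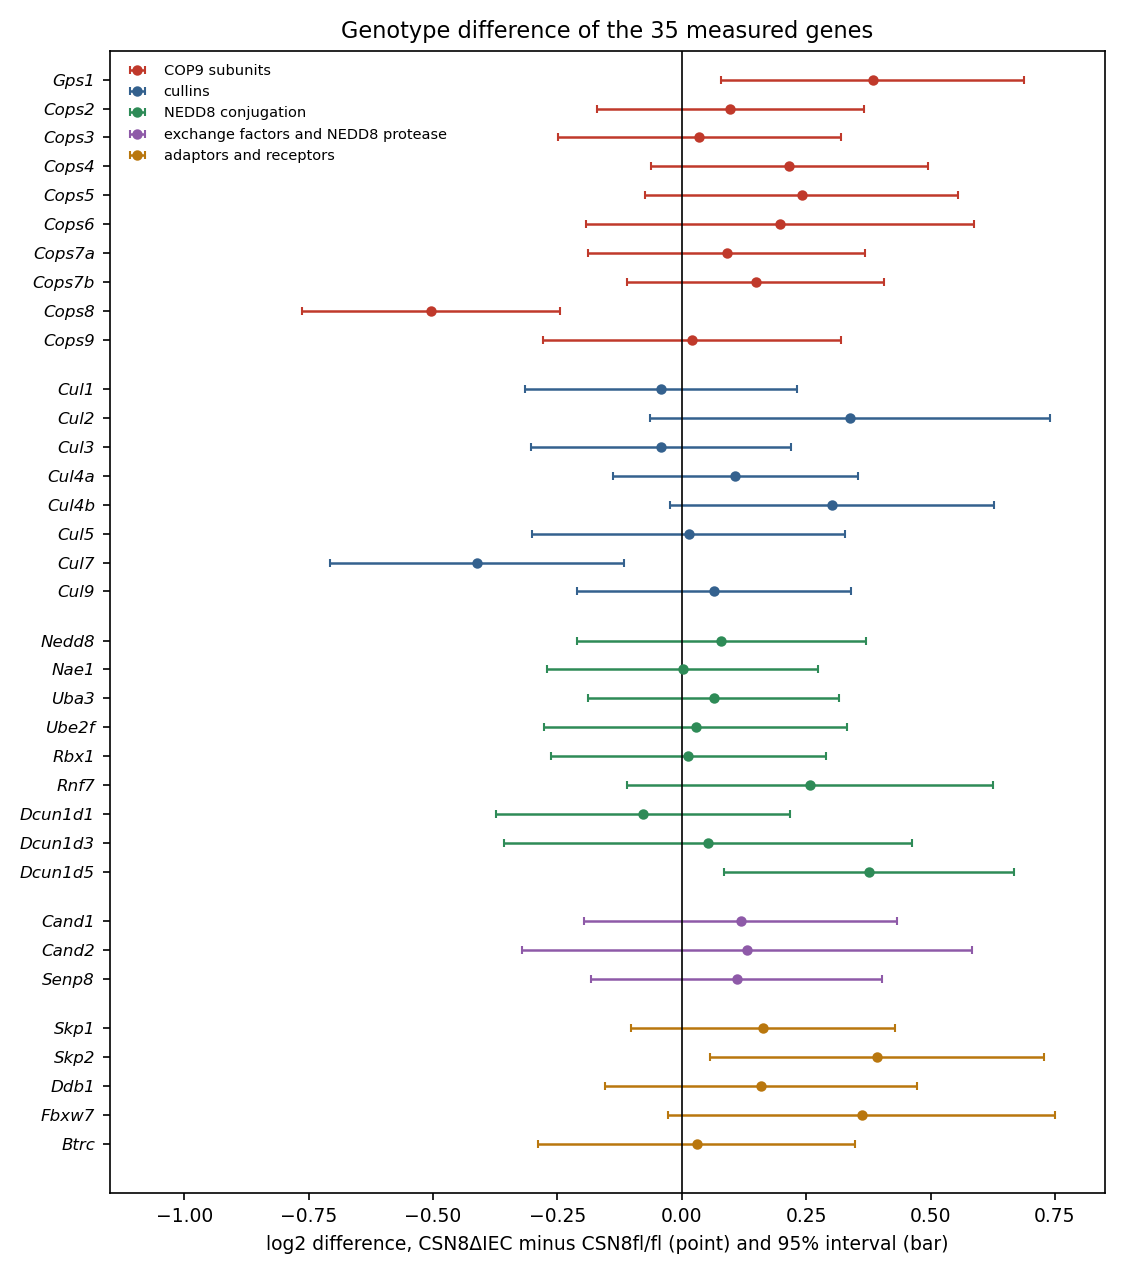
Log2 difference of each of the 35 measured genes, CSN8ΔIEC minus CSN8fl/fl, with its unadjusted 95% interval from limma, ordered and coloured by role. The intervals of Gps1, Dcun1d5 and Skp2 lie above 0 and those of Cops8 and Cul7 below 0.

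Genes that attach NEDD8 to cullins had a median difference of 0.053 over 9 measured, with 8 of 9 above 0. Without CSN8ΔIEC replicate 2 the median was 0.0012 and 5 of 9 were above 0. It was 0.012 without CSN8ΔIEC replicate 1 and 0.020 without CSN8fl/fl replicate 3, each with 6 of 9 above 0. Nedd8, the modifier, differed by 0.079 ± 0.13. Its activating enzyme is a dimer of Nae1 (0.0016 ± 0.12) and Uba3 (0.064 ± 0.11), and Ube2f, a conjugating enzyme for Cul5, differed by 0.028 ± 0.13. Rbx1, the RING protein of most cullins, had 9.50, 9.45 and 9.33 in CSN8ΔIEC, against 9.43, 9.54 and 9.28 in CSN8fl/fl (difference 0.013 ± 0.12, adjusted p = 0.969). Rnf7, the RING protein of Cul5, had 9.76, 9.79 and 9.52 in CSN8ΔIEC, against 9.49, 9.69 and 9.13 in CSN8fl/fl (difference 0.26 ± 0.16, adjusted p = 0.493). The difference of Rnf7 was 0.11 without CSN8fl/fl replicate 3.

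The DCUN1D proteins help to transfer NEDD8 onto the cullin, and 3 of them, Dcun1d1, Dcun1d3 and Dcun1d5, are among the 35 genes. Dcun1d5 had 8.51, 8.39 and 8.39 in CSN8ΔIEC, against 8.21, 8.08 and 7.87 in CSN8fl/fl. Its CSN8ΔIEC values were all higher, with a difference of 0.38 ± 0.13 (adjusted p = 0.22; 0.28 without CSN8fl/fl replicate 3). Dcun1d1 had a difference of −0.078 ± 0.13 and Dcun1d3 one of 0.053 ± 0.18. Of their relatives outside the 35, Dcun1d2 had a difference of 0.027 ± 0.11 and Dcun1d4 one of −0.11 ± 0.15. In these 4 the genotypes overlapped. The 95% interval of Dcun1d5 was 0.085 to 0.67, and that of Dcun1d1 was −0.37 to 0.22, so the intervals overlapped. Whether these genes differ from each other was not tested.

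Exchange of substrate receptors depends on Cand1, which binds cullins free of NEDD8, and Senp8 matures the NEDD8 precursor and removes NEDD8 from proteins other than cullins. Cand1 had a difference of 0.12 ± 0.14 (adjusted p = 0.73), its paralogue Cand2 one of 0.13 ± 0.20 (adjusted p = 0.797) and Senp8 one of 0.11 ± 0.13 (adjusted p = 0.728). The genotypes overlapped in all 3. Their mean deviation was 0.13, −0.056 and 0.11 on the CSN8ΔIEC arrays, against 0.011, −0.25 and 0.061 on the CSN8fl/fl arrays, so here CSN8fl/fl replicate 2 and not replicate 3 was the lowest.

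**Figure D4:**
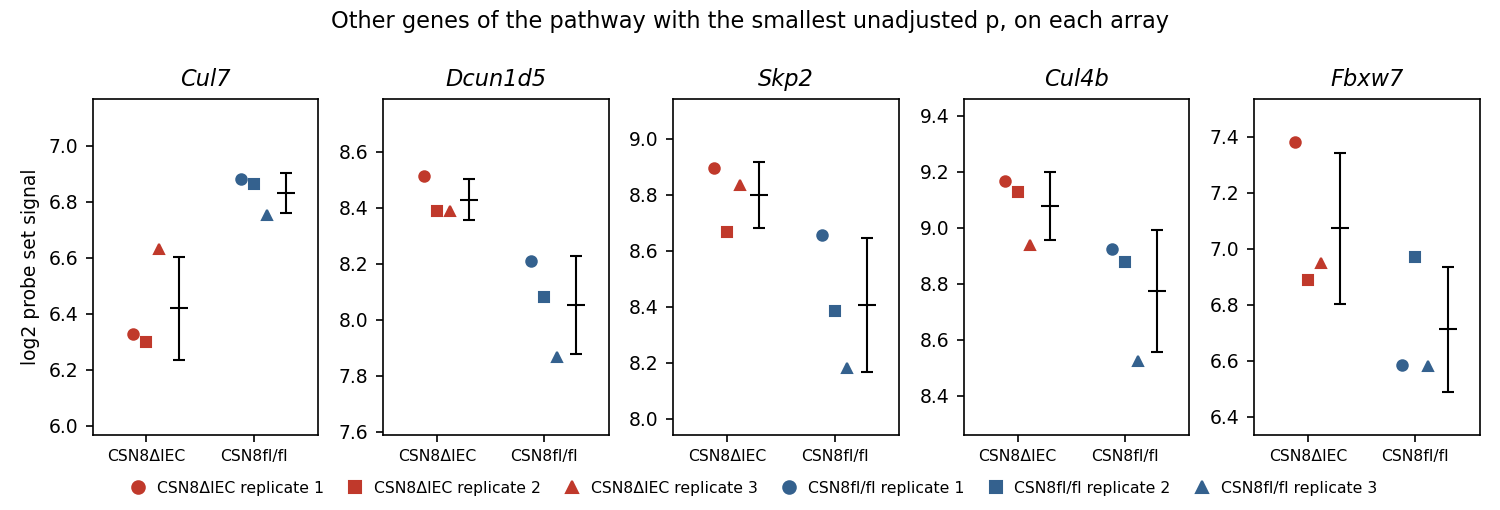
Log2 probe set signals on each array of the 5 genes outside the signalosome with the smallest unadjusted p, CSN8ΔIEC left of CSN8fl/fl. Every y axis spans the same range and bars give mean and SD (n = 3). The genotypes are apart in Cul7 (lower in CSN8ΔIEC) and in Dcun1d5, Skp2 and Cul4b (higher), and overlap in Fbxw7.

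The 5 adaptors and receptors all had differences above 0, with a median of 0.16. Skp2, the F-box receptor that targets the cell cycle inhibitor p27, had 8.90, 8.67 and 8.84 in CSN8ΔIEC, against 8.66, 8.39 and 8.18 in CSN8fl/fl. The CSN8ΔIEC values were all higher, by 0.0095 at the closest arrays, with a difference of 0.39 ± 0.15 (adjusted p = 0.267; 0.28 without CSN8fl/fl replicate 3). Fbxw7, the receptor for cyclin E, Myc and Notch, had 7.38, 6.89 and 6.95 in CSN8ΔIEC, against 6.59, 6.97 and 6.58 in CSN8fl/fl (difference 0.36 ± 0.17, adjusted p = 0.369). CSN8ΔIEC replicate 1 stood above the other arrays, and the genotypes overlapped. Its difference was 0.21 without that array and 0.49 without CSN8fl/fl replicate 2.

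The adaptor Skp1, which links F-box proteins to Cul1, had 11.91, 11.96 and 11.73 in CSN8ΔIEC, against 11.74, 11.71 and 11.67 in CSN8fl/fl (difference 0.16 ± 0.12, adjusted p = 0.547). The lowest CSN8ΔIEC array lay just below the highest CSN8fl/fl array. Ddb1, the adaptor of the Cul4 ligases, differed by 0.16 ± 0.14 (0.048 without CSN8fl/fl replicate 3) and Btrc, the receptor for β-catenin and IκB, by 0.030 ± 0.14.

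Over the 35 genes, 30 differences were above 0 and the median was 0.098. Without CSN8fl/fl replicate 3, 25 were above 0 and the median was 0.079, where 48.0% of all genes were above 0. Groups did not overlap in 7 of the 35 genes, or 20.0%, against 22.4% of all genes. Among genes at or above the median signal they did not overlap in 6 of 33 members (18.2%), against 30.1% of all such genes. With 1 array fewer, groups are apart more often: 12 and 14 of the 35 without CSN8fl/fl replicates 1 and 2 (35.5% and 33.1% of all genes), 11 and 13 without CSN8ΔIEC replicates 2 and 3 (34.2% and 30.9%), but 8 without CSN8fl/fl replicate 3 and 7 without CSN8ΔIEC replicate 1 (31.8% and 29.8%). The SD within a genotype had a median of 0.12 in CSN8ΔIEC and 0.16 in CSN8fl/fl, and it was larger in CSN8fl/fl for 27 of the 35 genes, against 62.3% of all genes. Unadjusted 95% intervals lay within a 1.5-fold change either way for 25 genes, among them 7 of the 9 subunits. For the other 10 (Gps1, Cops6, Cops8, Cul2, Cul4b, Cul7, Rnf7, Dcun1d5, Skp2 and Fbxw7) a change of that size in at least 1 direction lay within the interval.

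**Figure D5:**
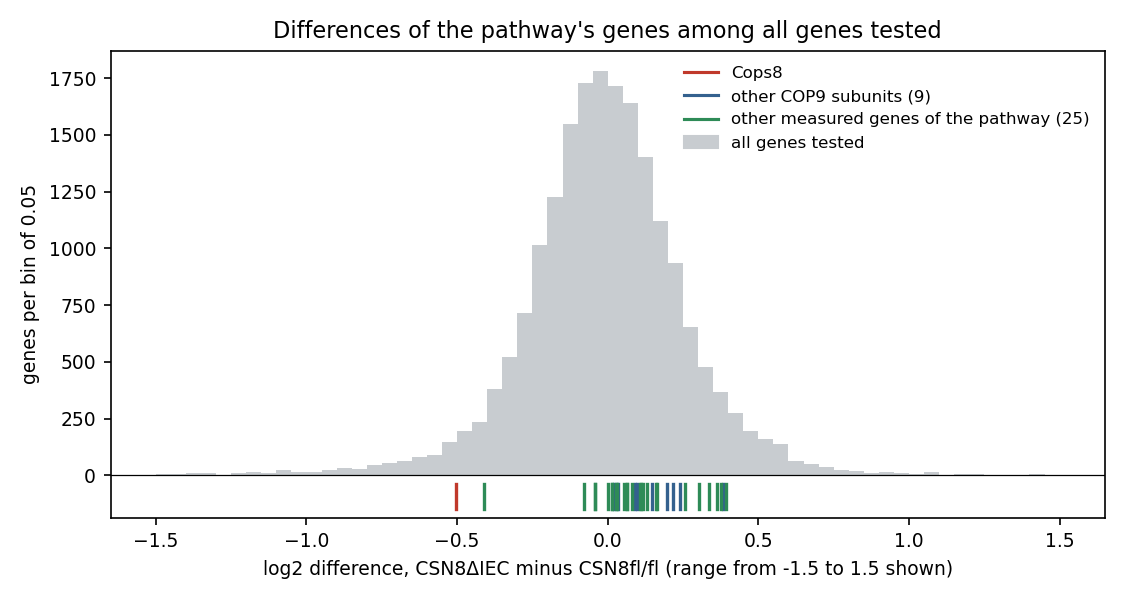
Differences of all genes tested (grey, genes per bin of 0.05; 107 genes beyond ±1.5 are not shown) and of the 35 measured genes (ticks below the axis). Cops8 at −0.50 and Cul7 at −0.41 are the leftmost ticks, and the other 33 lie between −0.078 and 0.39, within the bulk of all genes.

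Start regions were compared because they are shared sequence context that the choice of genes did not use. The RefSeq windows (GRCm38.p6, 250 bases before to 50 after a transcription start) held 31 of the 35 genes. Cops5, Cul2, Cand2 and Btrc had no entry. The 3 windows shown, 5′ to 3′ on the gene's strand, belong to the deleted subunit, to the subunit with the largest positive difference (the first of its 2 windows) and to the cullin with the largest negative one. Capitals mark CCGGAAG or its reverse complement CTTCCGG, the core bound by ETS family factors.
Cops8, chr1:90603175-90603474: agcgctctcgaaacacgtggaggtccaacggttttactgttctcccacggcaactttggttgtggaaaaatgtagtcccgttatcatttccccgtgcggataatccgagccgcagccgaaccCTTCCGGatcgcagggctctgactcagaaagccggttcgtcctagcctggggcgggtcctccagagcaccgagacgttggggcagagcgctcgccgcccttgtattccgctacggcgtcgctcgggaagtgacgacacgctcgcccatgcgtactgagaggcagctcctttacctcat
Gps1, chr11:120784020-120784319: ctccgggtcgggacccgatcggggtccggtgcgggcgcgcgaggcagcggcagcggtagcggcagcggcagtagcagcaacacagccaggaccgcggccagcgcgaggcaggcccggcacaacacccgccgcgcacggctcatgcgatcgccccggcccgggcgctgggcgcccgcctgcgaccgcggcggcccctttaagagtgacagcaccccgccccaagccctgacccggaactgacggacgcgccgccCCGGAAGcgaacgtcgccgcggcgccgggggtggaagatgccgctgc
Cul7, chr17:46650088-46650387: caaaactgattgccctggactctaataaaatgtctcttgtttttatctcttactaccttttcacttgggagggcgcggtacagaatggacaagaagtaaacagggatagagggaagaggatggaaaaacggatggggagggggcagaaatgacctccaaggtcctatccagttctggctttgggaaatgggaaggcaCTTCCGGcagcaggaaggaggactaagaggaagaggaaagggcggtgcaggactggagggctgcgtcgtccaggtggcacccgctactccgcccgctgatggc
All 3 lie on the plus strand and hold 1 match each, which starts at base 123 of the Cops8 window, 254 of the Gps1 window and 198 of the Cul7 window.

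The same 7 letters occurred on either strand in 11 of the 31 genes (35.5%), against 13.2% of 15691 tested genes with a window and 9.93% of all 27025 genes in the RefSeq table, counting a gene once if any of its windows held a match. These sets were not matched for windows per gene: the 31 genes had 44 windows and the 15691 had 19143. Nor were they matched for signal, and 33 of the 35 genes were at or above the median. Whether the shares differ beyond this was not tested. Among the signalosome subunits with a window, 6 of 9 held it: Gps1, Cops2, Cops3, Cops7a, Cops8 and Cops9. Cops4, Cops6 and Cops7b did not. Genes with a match thus included both the lowest and the highest difference among the subunits. The antioxidant response element core TGACNNNGC, bound by NRF2, occurred in 4 of 31 genes (12.9%; 15.0% of tested genes), and the E2F core TTTNNCGC in 2 of 31 (6.45%; 7.38% of tested genes). Neither core was found in the windows of Cops8, Gps1 or Cul7. A match is a run of letters and not evidence of binding.

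Labelled sex and age change together in this design, and each genotype had 1 array labelled male. In the arrays labelled female all 9 subunits other than Cops8 had differences above 0 (median 0.075), from 0.0019 (Cops3) to 0.33 (Gps1). All 9 were also above 0 in those labelled male (median 0.22), where 1 array is set against 1. The CSN8fl/fl array labelled male is replicate 3, the lowest array for 8 of the 9 subunits, so that median rests on it. Cops8 differed by −0.59 in arrays labelled female and by −0.33 in those labelled male. In a limma model with the interaction, whose spread came from the arrays labelled female alone, none of the 35 genes passed, nor any of all genes, and at an unadjusted p under 0.05 there were 0 of the 35 and 10.1% of all genes. The smallest p among the 35 belonged to Cul7, which differed by −0.56 between genotypes in arrays labelled female and by −0.12 in those labelled male (interaction 0.44 ± 0.22, adjusted p = 0.539). Senp8 differed by 0.23 and −0.14 (adjusted p = 0.596) and Cops6 by 0.075 and 0.44 (adjusted p = 0.636).

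Beyond the 35, 57 of 60 listed genes of cullin ligases and NEDD8 (other substrate receptors, ubiquitin-conjugating enzymes and regulators) were measured. None passed the threshold and 8 had an unadjusted p under 0.05 (14.0%), a share near the 15.0% of all genes. Their median difference was 0.055, with 37 above 0. The smallest p belonged to Dtl, the receptor through which Cul4 ligases destroy the replication licensing factor Cdt1 during S phase. Dtl had 8.64, 8.56 and 8.73 in CSN8ΔIEC, against 8.12, 7.85 and 7.43 in CSN8fl/fl (difference 0.84 ± 0.17, adjusted p = 0.0659). The genotypes were apart, and CSN8fl/fl replicate 3, lowest in proliferation markers, was also lowest in Dtl. Between the arrays labelled female, which do not include that array, Dtl differed by 0.62.

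Ercc8, a Cul4 receptor of transcription-coupled DNA repair, had 7.84, 7.74 and 7.69 in CSN8ΔIEC, against 7.56, 7.38 and 7.04 in CSN8fl/fl (difference 0.43 ± 0.15, adjusted p = 0.23). Arih1, which adds the first ubiquitin together with NEDD8-bearing cullins, had 10.37, 10.29 and 10.24 in CSN8ΔIEC, against 10.07, 9.97 and 9.95 in CSN8fl/fl (difference 0.30 ± 0.11, adjusted p = 0.254). Rhobtb1, a Cul3 adaptor, had 5.31, 5.60 and 5.44 in CSN8ΔIEC, against 5.89, 6.12 and 5.64 in CSN8fl/fl (difference −0.44 ± 0.15, adjusted p = 0.224). In these 3 genes too the genotypes did not overlap, higher in CSN8ΔIEC for Ercc8 and Arih1 and lower for Rhobtb1. They were named for their small p. Over the whole list of 57, groups were apart in 19 (33.3%), against 22.4% of all genes. Of the 57, 52 were at or above the median signal. With dimmer genes left out, the shares were 34.6% of the list and 30.1% of all genes. Rhobtb1, like Cul7, was dimmer than the median gene.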

How the data were processed

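Crypt RNA of 6 samples was hybridised to 1 array each. The values the authors deposited are log2 probe set signals, made with RMA (background correction, quantile normalisation and summarisation) and Partek 6.6, per the submitters' processing notes. For the settings and the genome build, the sources used here give nothing. Symbols came from the platform annotation: 19572 of 22206 probe sets carried a single symbol, 2634 carried none in it and 0 carried more than 1. For 55 genes with several probe sets the one with the highest mean was used, which left 19505 genes. Arrays have no read depth, so their number limits precision. Array medians differed by at most 0.058.

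Genotypes were compared with limma 3.58.1 (lmFit and eBayes, R 4.3.3, 8.85 degrees of freedom), two-sided, with Benjamini-Hochberg adjustment over all genes. The fit was also run on simulated data with independent noise and added differences larger than those of any member. That run cannot show how the fit performs at differences of the size seen in the members. Alternatives were a filter on dim genes, the mean of probe sets, centring of arrays on their median, another variance prior, labelled sex and age as a covariate, the replicate number as a block, and leaving out each array. The members and lists were chosen with earlier results of these data known. The plan was to name Cops8, all subunits, the 8 other members with the smallest p, and 4 genes of each further list. Those 8 were Cul7, Dcun1d5, Skp2, Cul4b, Fbxw7, Cul2, Rnf7 and Skp1. Beyond that plan, the remaining measured members were named too, as were Fbxw8, Dcun1d2, Dcun1d4, Alpi and Acta2.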

Additional observations from a re-analysis of the deposited data

How the results depend on the processing

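Under 12 alternatives, the difference of Cops8 kept its sign, from −0.55 to −0.47, and passed the threshold in 1 of them: without genes dimmer than the median it was −0.50 (adjusted p = 0.0436), and 1 of the 33 members kept passed there. Its adjusted p ranged from 0.0436 to 0.293. The median of the 9 other subunits lay between 0.080 and 0.21 and that of all 35 between 0.069 and 0.13. The share of members at an unadjusted p under 0.05 was 20.0% with labelled sex and age as covariate (16.0% of all genes). With the replicate block it was 20.0% (14.2% of all genes). It was 12.1% with dim genes left out (21.5% of all genes) and 5.71% without CSN8ΔIEC replicate 1 (10.4% of all genes). Without 1 array, the count of all genes past the threshold, 210, ranged from 41 to 228, and the count of members whose groups do not overlap, 7, from 7 to 14, since fewer arrays overlap less. Of 406 values of the other 34 members, 0 passed and 21 had the opposite sign, all without 1 array, in 11 members whose differences ranged from −0.042 (Cul1) to 0.13 (Cand2). Their ranges were −0.044 to 0.083 for Cops3, −0.059 to 0.11 for Cops9, −0.12 to 0.017 for Cul1, −0.076 to 0.016 for Cul3, −0.093 to 0.093 for Cul5, −0.057 to 0.055 for Nae1, −0.082 to 0.087 for Ube2f, −0.055 to 0.076 for Rbx1, −0.13 to 0.24 for Dcun1d3, −0.074 to 0.27 for Cand2 and −0.076 to 0.15 for Btrc. The cause of these changes was not tested.

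Samples with the same replicate number share labelled sex and age in both genotypes. Deviations of same-numbered arrays correlated weakly, at 0.12, −0.024 and 0.038, and 3 of 6 arrays correlated best with their own number. Such values cannot settle whether the samples were paired, which the labels do not state. With the replicate block, Cops8 differed by −0.50 ± 0.13 (adjusted p = 0.165) and 202 genes passed. With 3 arrays per genotype, 10 of the 35 intervals reach a 1.5-fold change.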
